A study of Oryza sativa Japonica Group with 9 samples.

Results

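The comparison set shoot apices of the jmj705 mutant directly against those of the wox11 mutant of rice, with wild type shown for reference. A locus entered when it carried a gene name, had a valid estimate in all 6 expression libraries and reached at least 1 FPKM in at least 2 of them, which left 21480 of the 57567 loci in the tables. FPKM is a fragment number scaled by transcript length and by library size, so levels can be compared between genes, but the total read number of a library is unknown. Each genotype has 2 libraries, called biological repeats in the design text, made from the 2 to 3 mm shoot tip of seedlings of the cultivar Hwayoung aged 5 days. The groups were the jmj705 mutant, the wox11 mutant and wild type, all raised on medium with 2% sucrose in days of 14 h of light (28 °C) and nights of 10 h (24 °C). The sources used here give neither the lesion in a mutant, nor the number of apices in a library, nor the hour of dissection. In addition, JMJ705 was mapped by anti-FLAG ChIP-seq in apices that over-express it in wild-type or wox11 mutant plants, with 1 peak list for each.

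WOX11 is a WUSCHEL-related homeobox transcription factor, best known in rice for crown root formation and shoot growth. JMJ705 is a jumonji-domain demethylase of histone H3 lysine 27 (H3K27), whose methylation is a mark laid down by Polycomb complexes and found on genes that are kept silent. The series concerns the joint action of the pair on genes of the growing shoot, and setting the mutants against each other asks what each has that the other lacks. Many of the named genes below belong to the plant clock, in which LHY, a MYB transcription factor of the morning, represses evening genes such as LUX and GI, as worked out mainly in Arabidopsis.

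On the log2(FPKM + 1) scale any pair of libraries correlated at a Pearson's r of 0.962 to 0.987 across loci, and a jmj705 with a wox11 library at 0.974 to 0.981; loci are not independent replicates. Named loci summed to between 700090 and 820527 FPKM per library. In values below 0.1 FPKM, where the steps of single reads can be seen, the commonest ratio between libraries put the worth of 1 read at 0.959 to 1.03 times that in wox11 replicate 1. The meristem markers OSH1, OSH15 and OSH71 and the leaf markers YAB1, YAB4 and YAB5 were all above 9 FPKM in every library, while both seed storage markers stayed below 1 FPKM. The green leaf markers summed to 279 and 297 FPKM in jmj705, 149 and 233 in wox11, and 553 and 588 in wild type, so that wox11 replicate 2 was the least green library. Root markers summed to 30.1 and 34.3 FPKM in jmj705, 34.0 and 37.9 in wox11, and 39.7 and 45.3 in wild type, with the root marker RCc3 at or near 0 in all. In whole apices, fewer cells of a type and less RNA per cell cannot be told apart.

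Levels of the mutated genes served as a check of the labels. The WOX11 locus (LOC_Os07g48560, on chromosome 7 from 29073043 to 29075687 in a build that the sources do not name) stood at 4.57 and 7.56 FPKM in the jmj705 libraries, 1.49 and 1.11 FPKM in the wox11 libraries, and 4.52 and 5.00 FPKM in wild type. Both wox11 libraries lay below every other library. The log2 difference, jmj705 minus wox11, was 1.59 (SE 0.23) and missed the threshold of 0.05 at an adjusted p of 0.0602 by limma, in a range of 0.0467 to 0.446 over the alternative settings; it passed at 0.0467 without jmj705 replicate 1. JMJ705 (LOC_Os01g67970, chromosome 1, 39493115 to 39500079) stood at 13.7 and 12.5 FPKM in the jmj705 libraries, 8.39 and 8.10 FPKM in the wox11 libraries, and 7.41 and 6.73 FPKM in wild type. Its transcript was thus most abundant in the libraries labelled jmj705, against that label, with a log2 difference of 0.61 (SE 0.13) and an adjusted p of 0.202 that did not pass (0.177 to 0.988 over the alternatives). Which part of the JMJ705 transcript the mutant makes is not given, and every direction below rests on the labels.

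Between the mutants, 61 loci passed limma's test at an adjusted p below 0.05, or 0.284% of those tested. Of these, 37 were higher in the libraries labelled jmj705 (0.172%) and 24 were lower there (0.112%), and 1569 loci (7.3%) had an unadjusted p below 0.05. With jmj705 replicate 1 or 2 left out the count was 38 or 32, and with wox11 replicate 1 or 2 left out it was 29 or 24. No called locus changed sign in any of the 15 alternative fits, an outcome largely fixed in advance. Several of these fits changed only the spread or the loci tested, and the mutants' libraries did not overlap at any called locus. With no overlap between the mutants, 168 loci (0.782%) lay at least 2-fold higher in jmj705 and 75 loci (0.349%) at least 2-fold lower. Without the 2-fold limit the balance was reversed. Both jmj705 libraries then lay above both wox11 libraries in 3894 loci (18.1%) and below them in 4077 (19.0%). Folds and log2 differences are those of FPKM + 1, a scale on which low genes appear to change less than they do. Only 6 of the called loci could be named, through the gene lists and a RefSeq table, and the other 55 are given by locus ID or as counts.

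**Figure D1:**
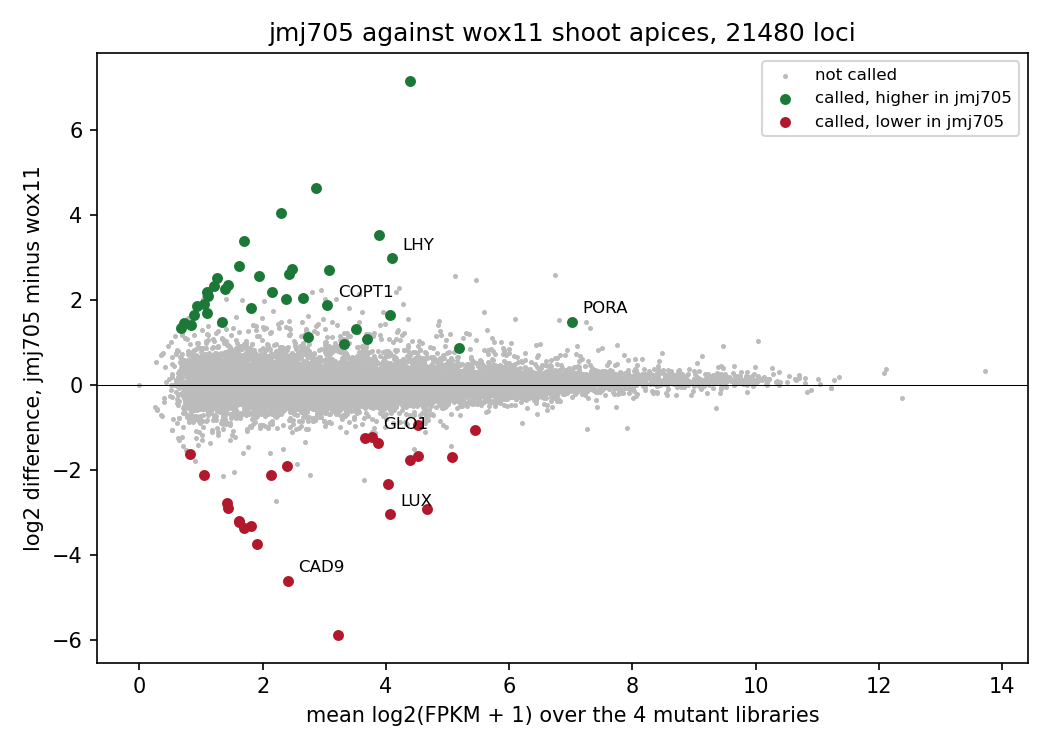
Log2 difference, jmj705 minus wox11, of the 21480 tested loci against their mean log2(FPKM + 1) over the 4 mutant libraries, with the 37 loci called higher in jmj705 in green and the 24 called lower in red. LHY, COPT1 and PORA lie above 0, and LUX, GLO1 and CAD9 lie below it.

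Among the called genes of the functional lists, LHY and LUX of the clock differed most between the mutants. jmj705 apices held more LHY transcript and far less LUX transcript than wox11 apices. The hour of dissection is not given, and its part in these morning and evening transcripts was not tested. LHY (LOC_Os08g06110, chromosome 8, 3360786 to 3373471) stood at 54.1 and 40.9 FPKM in jmj705, 5.31 and 4.85 FPKM in wox11, and 147 and 123 FPKM in wild type. The 3 genotypes did not overlap, with jmj705 between wox11 and wild type. LHY was 7.92-fold higher in jmj705 than in wox11 (log2 difference 2.99, SE 0.16, adjusted p = 0.000627 by limma, 0.000457 to 0.0168 over the alternatives, none of which ended the call).

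LUX, a component of the evening complex that RefSeq lists as PCL1 (LOC_Os01g74020, chromosome 1, 42874207 to 42875515), stood at 3.80 and 6.11 FPKM in jmj705, 45.9 and 48.2 FPKM in wox11, and 0.913 and 3.44 FPKM in wild type. Here the jmj705 libraries lay above the wild-type libraries, which differed between themselves, and the wox11 libraries lay far above both genotypes. LUX was 8.22-fold lower in jmj705 than in wox11 (log2 difference -3.04, SE 0.37, adjusted p = 0.0306 by limma). The call was lost in 7 of 15 alternatives (adjusted p 0.00261 to 0.265 over all of them), and on leaving out any single mutant library: at adjusted p of 0.188 and 0.136 with jmj705 replicate 1 or 2 left out, and of 0.222 and 0.265 with wox11 replicate 1 or 2 left out, although the log2 difference stayed between -3.32 and -2.76 in these fits.

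Those were the only clock genes of the 13 tested that passed, 1 in each direction (0.284% of all tested loci passed). GI, the rice GIGANTEA, stood at 147 and 140 FPKM in jmj705, 197 and 213 FPKM in wox11, and 43.9 and 56.6 FPKM in wild type, and missed the threshold between the mutants (log2 difference -0.51, 95% interval -0.87 to -0.15, adjusted p = 0.448). For PRR95, a pseudo-response regulator, the values were 58.8 and 65.7 FPKM in jmj705, 39.2 and 22.1 FPKM in wox11, and 15.6 and 35.3 FPKM in wild type. PRR1, the rice relative of Arabidopsis TOC1, stood at 32.7 and 32.3 FPKM in jmj705, 44.2 and 41.4 FPKM in wox11, and 13.5 and 23.2 FPKM in wild type. In GI and PRR1 the order of the genotypes was that of LUX, wild type lowest and wox11 highest. PRR73, PRR37 and ELF3-1 had log2 differences of 0.25, -0.03 and -0.12 between the mutants and did not pass. The clock list had a median log2 difference of -0.06, against 0.00 over all tested loci.

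**Figure D2:**
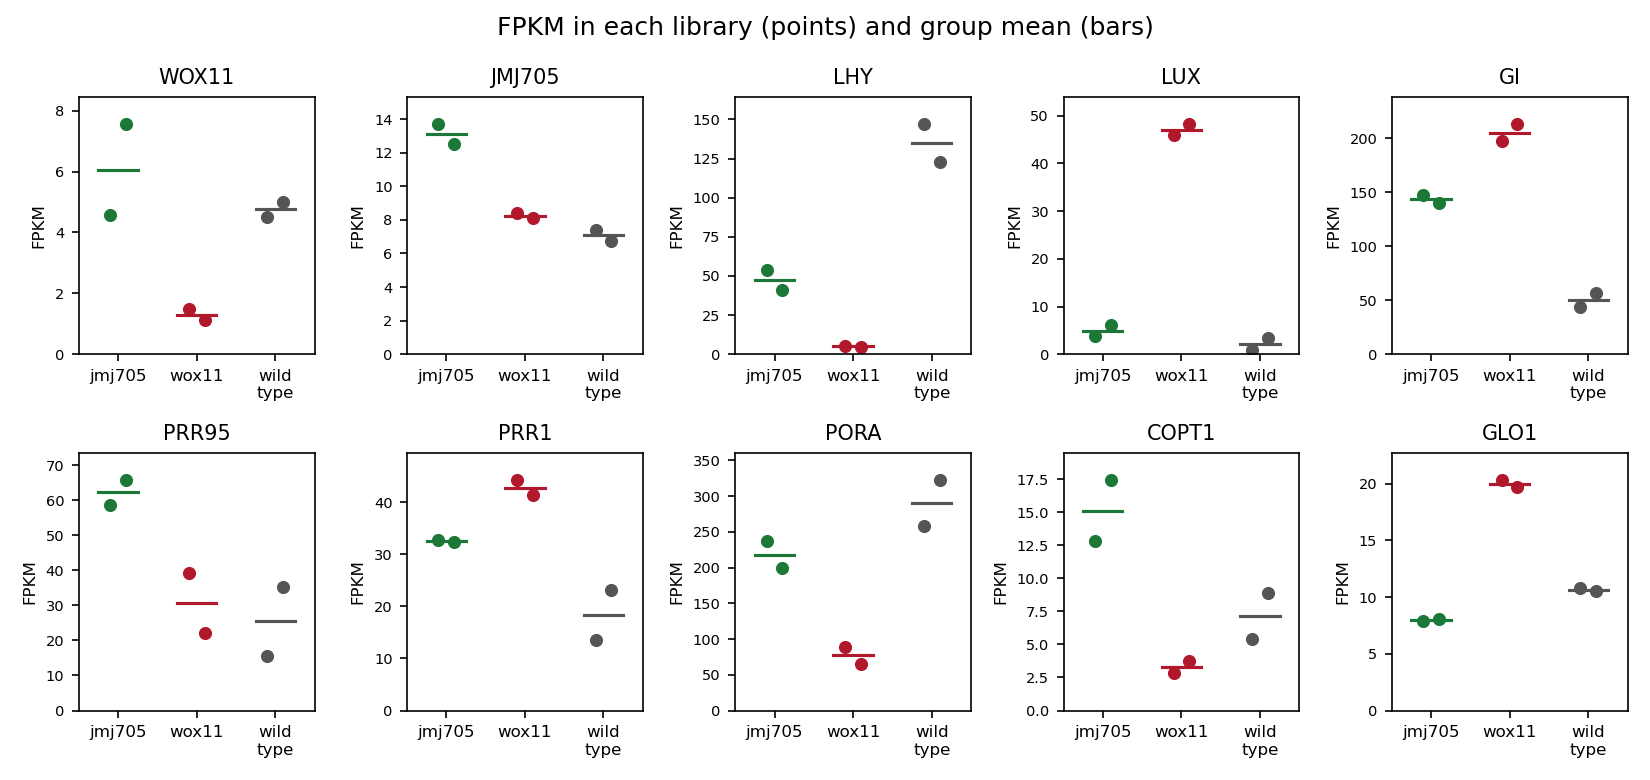
FPKM of 10 genes in each library (points) with the mean of each genotype (bars), in panels with their own axes from 0. In LHY and PORA the wox11 libraries are the lowest, and in LUX, GI, PRR1 and GLO1 they are the highest, while JMJ705 is highest in the libraries labelled jmj705.

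Among genes of chlorophyll synthesis, 1 of 14 tested was called, against 0.284% of all tested loci. PORA, the light-dependent protochlorophyllide oxidoreductase that is abundant in seedlings first meeting light (LOC_Os04g58200, chromosome 4, 34663055 to 34664723), stood at 237 and 199 FPKM in jmj705, 88.8 and 65.6 FPKM in wox11, and 258 and 322 FPKM in wild type. The wox11 libraries lay well below both others. PORA was 2.82-fold higher in jmj705 than in wox11 (log2 difference 1.5, SE 0.20, adjusted p = 0.042 by limma), close to the threshold (0.0311 to 0.374 over the alternatives), and the call was lost in 9 of 15 alternatives, at adjusted p of 0.211 and 0.167 without jmj705 replicate 1 or 2, 0.124 and 0.374 with wox11 replicate 1 or 2 left out, and 0.0505 with wild-type replicate 1 left out. Its lowest value was that of wox11 replicate 2, the library with the lowest green leaf markers, whose part in the result was not tested. CHLD, a subunit of the magnesium chelatase that opens the chlorophyll branch, had 17.1 and 13.9 FPKM in jmj705, 19.5 and 25 FPKM in wox11, and 19.7 and 20.9 FPKM in wild type, and did not pass. The list as a whole had a median log2 difference of -0.06.

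Genes of light harvesting and the photosystems did not pass in either direction (0 of 29 tested). In 8 of them the unadjusted p was below 0.05 by limma, 5 higher and 3 lower in jmj705, against 7.3% of all tested loci. The summed level of the list was 2562 and 2212 FPKM in jmj705, 2392 and 1466 FPKM in wox11, and 4292 and 4071 FPKM in wild type. The mutants overlapped, because wox11 replicate 1 lay between the jmj705 libraries. The list's median log2 difference was 0.17, and it was -0.12 without wox11 replicate 2 and 0.39 without wox11 replicate 1, so that a single library decided its sign. LHCB1.1, an antenna protein of photosystem II, had 302 and 290 FPKM in jmj705, 235 and 101 FPKM in wox11, and 522 and 484 FPKM in wild type. LHCB2, another of these antenna proteins, had 135 and 118 FPKM in jmj705, 95.5 and 42.3 FPKM in wox11, and 255 and 256 FPKM in wild type. In both genes the jmj705 libraries lay above the wox11 libraries and below wild type, with wox11 replicate 2 lowest, and neither passed. FNR1, the leaf ferredoxin-NADP reductase, ran the other way, with 10.2 and 9.09 FPKM in jmj705, 19.1 and 17.2 FPKM in wox11, and 12.2 and 11.7 FPKM in wild type. It came close to the threshold (log2 difference -0.85, 95% interval -1.15 to -0.54, adjusted p = 0.0689 by limma).

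None of the 13 Calvin cycle genes passed. The list's median was -0.13 (-0.21 to -0.10 over the alternatives), and in 7 of its genes (53.8%) both jmj705 libraries lay below both wox11 libraries, a pattern found in 19.0% of all tested loci. FBP, a fructose-bisphosphatase, was nearest to a call (adjusted p = 0.0681 by limma). It had 2.12 and 1.94 FPKM in jmj705, 5.22 and 4.70 FPKM in wox11, and 4.83 and 5.02 FPKM in wild type, so jmj705 alone was low. GLK1, a transcription factor that drives chloroplast genes, had 39.8 and 37.4 FPKM in jmj705, 28.6 and 24.0 FPKM in wox11, and 42.7 and 44.6 FPKM in wild type, with wox11 alone low and an adjusted p of 0.267 that did not pass. Its own list, chloroplast development, had a median of -0.14 over 7 tested genes, 5 of them below 0, and no call. The sign of that median changed with a single library left out.

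GLO1, a glycolate oxidase, the peroxisomal enzyme of photorespiration (LOC_Os03g57220, chromosome 3, 32628528 to 32632535), was lower in jmj705. It stood at 7.89 and 8.06 FPKM in jmj705, 20.3 and 19.7 FPKM in wox11, and 10.8 and 10.5 FPKM in wild type. Replicates agreed closely, and wox11 was the highest genotype. GLO1 was 2.34-fold lower in jmj705 than in wox11 (log2 difference -1.22, SE 0.12, adjusted p = 0.0073 by limma, 0.00798 to 0.135 over the alternatives), and the call was lost at adjusted p of 0.0687 and 0.0689 on leaving out jmj705 replicate 1 or 2, and of 0.132 and 0.135 on leaving out wox11 replicate 1 or 2.

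COPT1, a copper transporter of the plasma membrane (LOC_Os01g56420, chromosome 1, 32523328 to 32524183), was higher in jmj705. Its values were 12.8 and 17 FPKM in jmj705, 2.87 and 3.77 FPKM in wox11, and 5.37 and 8.90 FPKM in wild type. Wild type lay between the mutants and overlapped neither. The difference was 3.70-fold (log2 difference 1.89, SE 0.25, adjusted p = 0.042 by limma, 0.0112 to 0.281 over the alternatives) and was not called in any fit that left out a mutant library (adjusted p of 0.114 and 0.247 for jmj705 replicate 1 or 2, and of 0.281 and 0.226 for wox11 replicate 1 or 2). GLO1, COPT1 and CAD9 stood in none of the functional lists and were named after their values were seen.

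CAD9 encodes a protein of the cinnamyl alcohol dehydrogenase family, whose best known members act in lignin synthesis (LOC_Os03g12270, chromosome 3, 6452948 to 6457850). Its own entry stood at 0.0348 and 0.113 FPKM in jmj705, 24.6 and 25.6 FPKM in wox11, and 0.0505 and 0.134 FPKM in wild type, that is, near 0 outside wox11. This entry was called lower in jmj705 (log2 difference -4.60, SE 0.16, adjusted p = 6.75e-05 by limma), and it passed the filter through the wox11 libraries alone. A second entry at the same coordinates joins LOC_Os03g12270 with LOC_Os03g12280, and reads may be divided between the entries. The joined entry had 5.48 and 7.14 FPKM in jmj705, 35.5 and 35.9 FPKM in wox11, and 7.0 and 5.16 FPKM in wild type, and was also called lower in jmj705, by less (log2 difference -2.34, SE 0.18, adjusted p = 0.00246 by limma, 0.00138 to 0.0553 over the alternatives, the highest without wox11 replicate 2). None of the 10 tested genes of cellulose and the secondary wall passed, and their median log2 difference was -0.11.

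Auxin genes leaned to jmj705 over wox11 without a call. The list summed to 1036 and 1213 FPKM in jmj705, 968.6 and 962.4 FPKM in wox11, and 1047 and 1132 FPKM in wild type. Both wild-type sums thus lay between those of jmj705, and wox11 was lowest. Of 26 tested, 0 passed and 8 had an unadjusted p below 0.05, all higher in jmj705 (7.3% of all tested loci had one, in either direction). The median log2 difference was 0.23 (0.18 to 0.33 over the alternatives), with 24 genes above 0, whereas 50.3% of all tested loci lay above 0. In 17 of the genes (65.4%) both jmj705 libraries lay above both wox11 libraries, a pattern found in 18.1% of all tested loci. IAA12, IAA31 and IAA13 are Aux/IAA proteins, short-lived repressors of the auxin response, many of which auxin induces. IAA12 had 25.8 and 26.5 FPKM in jmj705, 14.2 and 14.7 FPKM in wox11, and 24.2 and 20.9 FPKM in wild type, and just missed the threshold (log2 difference 0.81, 95% interval 0.52 to 1.09, adjusted p = 0.0672 by limma). For IAA31 the values were 52.4 and 58.5 FPKM in jmj705, 38.6 and 38.8 FPKM in wox11, and 58.4 and 55.7 FPKM in wild type. In both genes wox11 stood apart and jmj705 lay at or above the wild-type level. IAA13 differed in that wild type was lowest, with 49.4 and 62.7 FPKM in jmj705, 38.9 and 34.6 FPKM in wox11, and 28.3 and 24.8 FPKM in wild type.

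Regulators of the shoot meristem leaned the same way, again without a call. They summed to 245.5 and 295.3 FPKM in jmj705, 205.8 and 216.7 FPKM in wox11, and 256.9 and 283.0 FPKM in wild type, with wox11 again lowest. Of 11 tested genes, 3 had an unadjusted p below 0.05, all higher in jmj705 (7.3% of all tested loci had one, in either direction), and the median log2 difference was 0.28 (0.20 to 0.36 over the alternatives). Both jmj705 libraries lay above both wox11 libraries in 7 of them (63.6%), against 18.1% of all tested loci. OSH71, a KNOX homeobox gene expressed in and around the meristem, had 44.4 and 57.9 FPKM in jmj705, 33.6 and 34.3 FPKM in wox11, and 49.9 and 51.8 FPKM in wild type (adjusted p = 0.327, not passed). Its relative OSH15 had 33.1 and 47.7 FPKM in jmj705, 26.9 and 33.2 FPKM in wox11, and 38.1 and 41.4 FPKM in wild type, so that the mutants overlapped by a small margin. The strigolactone and tillering list did not lean, with a median of 0.03 over 6 tested genes, 3 above 0 and 3 below. In that list D14, the strigolactone receptor that restrains tillering, had 33.8 and 38.8 FPKM in jmj705, 23.6 and 23.3 FPKM in wox11, and 39.2 and 42.5 FPKM in wild type. D14 did not pass either (log2 difference 0.61, 95% interval 0.32 to 0.89, adjusted p = 0.169 by limma).

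Polycomb genes and jumonji demethylases other than JMJ705 gave no call (0 of 8 and 0 of 8 tested). LHP1, a reader of the H3K27 mark, had 43.7 and 45.7 FPKM in jmj705, 45.6 and 44.3 FPKM in wox11, and 48.5 and 49.5 FPKM in wild type, with an interval of -0.26 to 0.25 for the log2 difference. EZ1, a methyltransferase that lays down the mark, had 7.87 and 5.13 FPKM in jmj705, 7.66 and 5.88 FPKM in wox11, and 7.43 and 5.83 FPKM in wild type (interval -0.59 to 0.46). Cell division genes (12 tested, median -0.04) and YABBY and leaf polarity genes (13 tested, median 0.00) had no called member. In the jasmonate and defence lists, which had medians of 0.27 and 0.40 and no called member, the sign depended on jmj705 replicate 1: the medians were -0.24 and -0.20 without it. The jasmonate repressor gene TIFY10A shows that spread, with 154 and 49.8 FPKM in jmj705, 76.4 and 45.6 FPKM in wox11, and 37.7 and 88.1 FPKM in wild type.

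**Figure D3:**
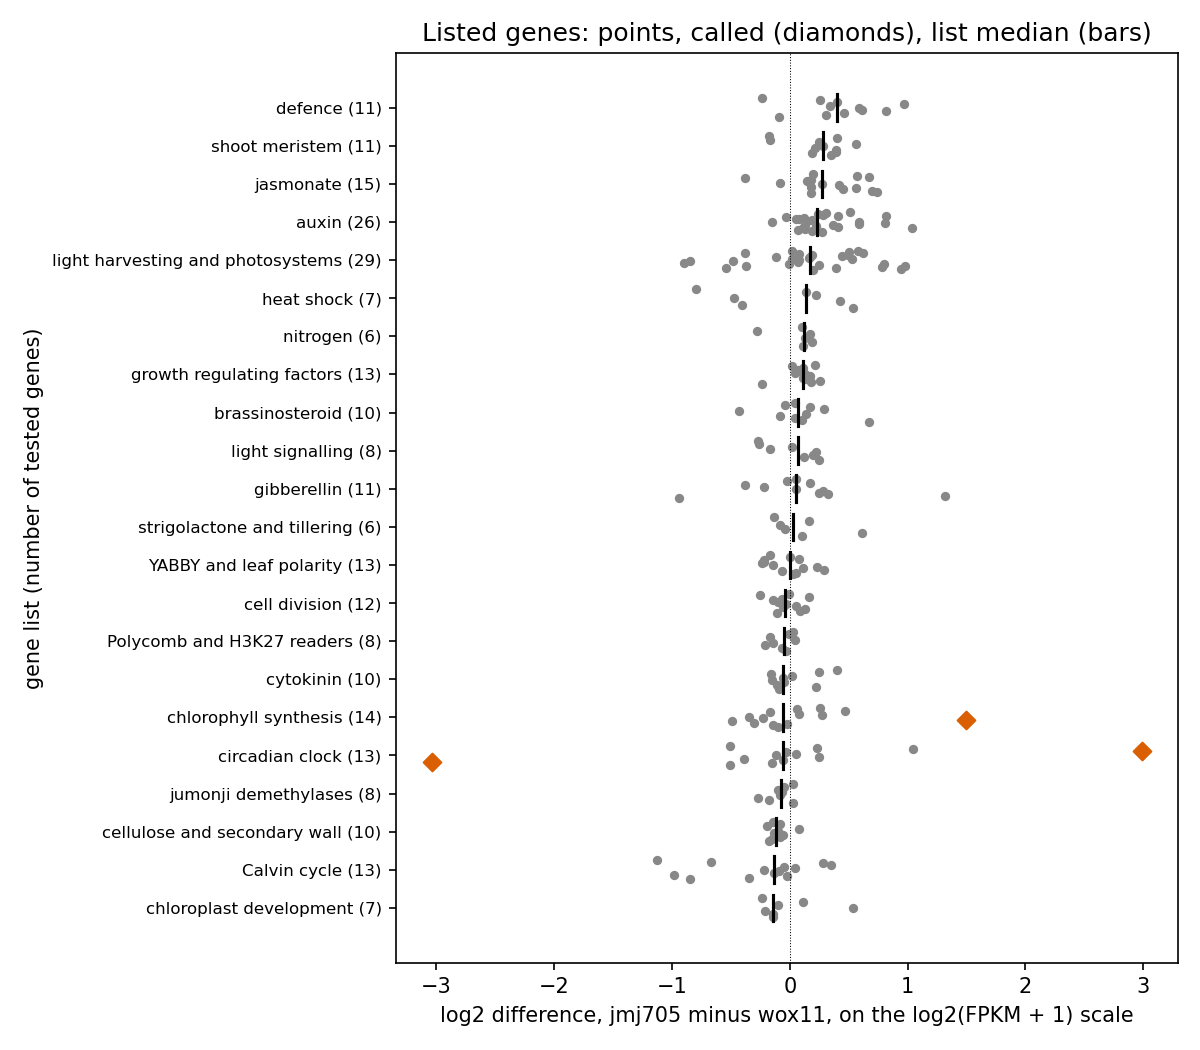
Log2 difference, jmj705 minus wox11, of the tested genes of 22 lists with at least 6 tested genes, ordered by the list median (bar), with called genes as diamonds. LHY and LUX of the clock list and PORA of the chlorophyll list are the called genes, and most auxin and meristem genes lie to the right of 0.

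The largest difference in each direction was in a locus without a known name. LOC_Os01g35330 (chromosome 1, 19549142 to 19550352) was on in jmj705 alone, at 220 and 287 FPKM in jmj705, 0.919 and 0.611 FPKM in wox11, and 0.518 and 0.504 FPKM in wild type (log2 difference 7.17, SE 0.17, adjusted p = 1.16e-05 by limma). LOC_Os07g26100 (chromosome 7, 14973696 to 14975031) had the same pattern, at 29.2 and 42.7 FPKM in jmj705, 0.715 and 0.227 FPKM in wox11, and 0.0890 and 0.0289 FPKM in wild type. In the other direction, LOC_Os03g18779 (chromosome 3, 10518910 to 10520197) was on in wox11 alone, at 0.279 and 0.159 FPKM in jmj705, 68.6 and 72.5 FPKM in wox11, and 0.155 and 0.242 FPKM in wild type (log2 difference -5.88, SE 0.15, adjusted p = 1.16e-05 by limma). LOC_Os12g40650 (chromosome 12, 25168782 to 25172058) had the same pattern, with 0.0486 FPKM and a listed 0 in jmj705, 13.8 and 11.6 FPKM in wox11, and a listed 0 and 0.0238 FPKM in wild type. All 4 loci lay below 1 FPKM in every library outside the mutant where they were high, so they passed the filter through that mutant alone.

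To ask what one mutant has that the other lacks, a locus was counted as on in a mutant at 5 FPKM or more in both libraries and as off below 0.5 FPKM in both. On this rule 4 loci (0.0186% of those tested) were on in jmj705 and off in wox11, and 9 loci (0.0419%) were on in wox11 and off in jmj705. All 9 of the wox11 loci were off in wild type as well, and so were 3 of the 4 jmj705 loci. For CAD9 this holds of its own entry only, since the joined entry at the same coordinates had 5.48 and 7.14 FPKM in jmj705 and 7.0 and 5.16 FPKM in wild type. Beside LOC_Os03g18779, CAD9 and LOC_Os12g40650, the highest wox11 loci were LOC_Os03g26280, at 0.0292 and 0.210 FPKM in jmj705, 12.5 and 8.06 FPKM in wox11, and 0.0293 FPKM and a listed 0 in wild type, and LOC_Os12g27800, at a listed 0 and 0.0345 FPKM in jmj705, 11 and 8.06 FPKM in wox11, and a listed 0 in both wild-type libraries. The balance between the mutants depended on the rule: with on set at 2 FPKM there were 15 jmj705 loci and 13 wox11 loci, and with off set below 1 FPKM there were 7 and 9.

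Of the 4 jmj705 loci, LOC_Os09g39510 (chromosome 9, 22695120 to 22696145) was the exception in being on in wild type, and so was lacking from wox11. It stood at 12.1 and 29.4 FPKM in jmj705, 0.0416 and 0.398 FPKM in wox11, and 15.6 and 13.0 FPKM in wild type (log2 difference 4.05, SE 0.37, adjusted p = 0.00635 by limma, 0.00541 to 0.0887 over the alternatives, with 0.0721 and 0.0559 when wox11 replicate 1 or 2 was left out). The next tested locus, LOC_Os09g39530, which begins 3775 bp beyond its end and was singled out after its values were seen, had 37.3 and 64.1 FPKM in jmj705, 2.78 and 3.99 FPKM in wox11, and 39.7 and 41.1 FPKM in wild type (adjusted p = 0.002 by limma). The neighbours thus moved together, both near the wild-type level in jmj705 and low in wox11. The other 3 were LOC_Os02g53240, with 7.59 and 11.7 FPKM in jmj705 and a listed 0 in all wox11 and wild-type libraries, LOC_Os01g64949, with 6.22 and 8.10 FPKM in jmj705, 0.342 FPKM and a listed 0 in wox11 and a listed 0 in wild type, and LOC_Os08g38800, with 5.10 and 5.21 FPKM in jmj705, 0.257 and 0.130 FPKM in wox11, and 0.0385 and 0.0719 FPKM in wild type. LOC_Os02g53240 shares its coordinates with another entry, so its reads may be divided.

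**Figure D4:**
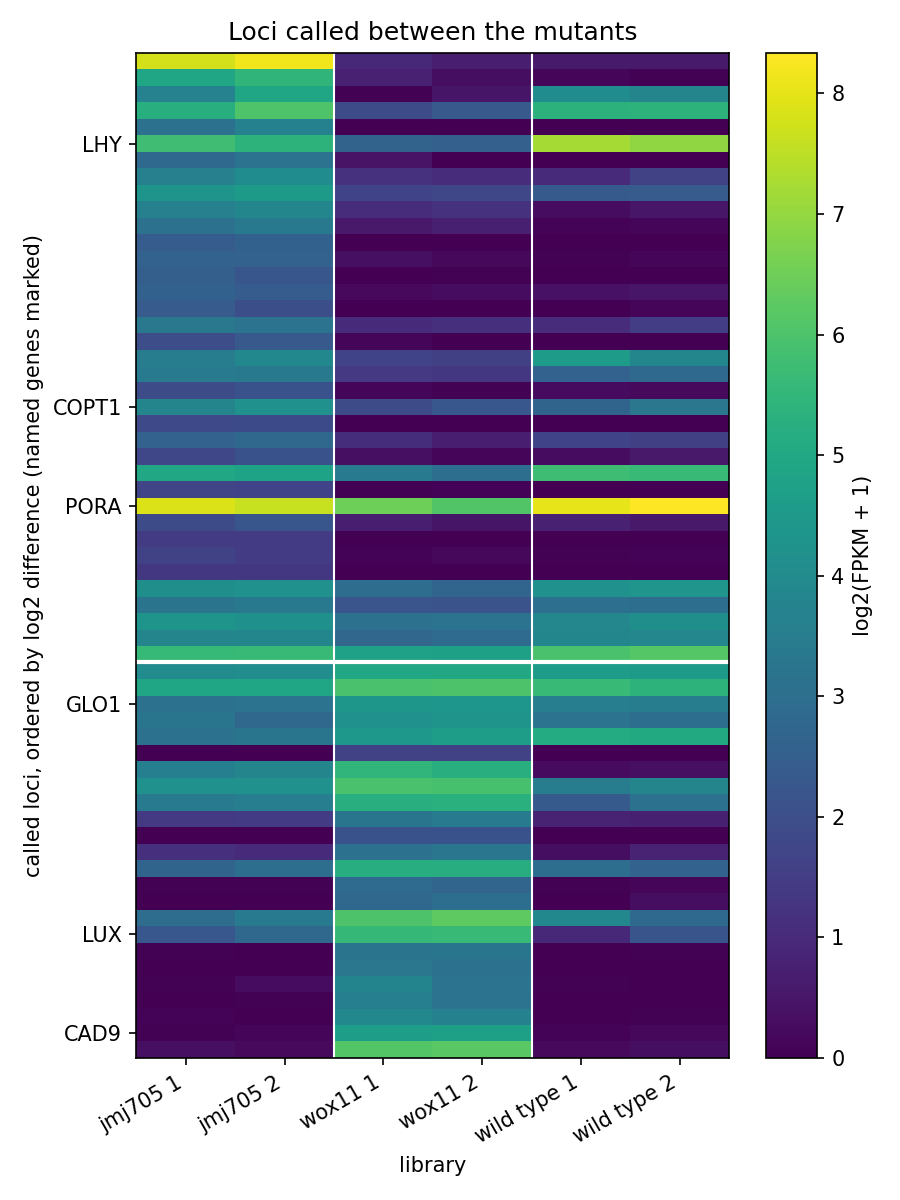
Log2(FPKM + 1) of the 61 called loci (rows, ordered by log2 difference, jmj705 minus wox11, with the white line below the 37 that were higher in jmj705) in each of the 6 libraries (columns). Rows that are dark in wox11 and wild type but lighter in jmj705 fill much of the upper part, and rows that are light in wox11 alone fill the lower end.

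Wild type was used to place the called loci. Of the 37 loci higher in jmj705, the wild-type mean (on the log2 scale) was above both mutants in 7, between or level with them in 20 and below both in 10, and it was nearer to wox11 in 25 and to jmj705 in 12. Of the 24 loci lower in jmj705, it was above both in 1, between or level in 12 and below both in 11, and it was nearer to jmj705 in 21 and to wox11 in 3. In 16 of the 37 loci both wox11 and wild type averaged below 0.5 FPKM, and 12 of these averaged below 5 FPKM in jmj705 too. In 11 of the 24 loci both jmj705 and wild type averaged below 0.5 FPKM, and only 2 of these averaged below 5 FPKM in wox11. Loci of both these kinds passed the filter through the higher mutant alone. So did some other called loci, among them LOC_Os01g35330, at 0.919 and 0.611 FPKM in wox11 and 0.518 and 0.504 FPKM in wild type. The spread behind their p-values comes in part from libraries at or near 0, so those p-values call for care. The places of wild type are descriptions and were not tested. Cufflinks gives bounds for each FPKM value, and those of the mutants did not meet in 19 of the 37 and 14 of the 24 loci, against 41 of all tested loci (0.191%). The 41 include those called loci. Calls and bounds rest on the same FPKM values, so the bounds are no separate support for the calls.

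Called loci were spread over 11 chromosomes, and chromosome 11 held none. Chromosome 3, with 13.3% of the tested loci, held 8 of the 24 loci lower in jmj705 (33.3%) and 1 of the 37 loci higher there. These 8 include both entries of the CAD9 region. Chromosome 10, with 5.17% of the tested loci, held 7 of the 37 loci higher in jmj705 (18.9%) and 1 of the 24 lower. No window of 5 Mb held more than 4 called loci, the fullest being the last window of chromosome 9, with 3 higher and 1 lower. Beside the CAD9 entries and the chromosome 9 neighbours, LOC_Os10g40480 and LOC_Os10g40520, both higher in jmj705 and 18401 bp apart, were the only called loci of 1 direction within 100 kb of each other.

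JMJ705 peaks were compared with the called loci. Each list was called by the authors from 1 ChIP library against a control file of its own, per the file headers, with 4488720 tags after filtering in the wild-type background and 6811451 in the wox11 background. Of the 61 called loci, 4 had a peak within 2000 bp in the wild-type background (6.56%, exact 95% interval 1.82 to 15.9%), against 4.75% of all tested loci. In the wox11 background 2 had a peak (3.28%, interval 0.400 to 11.3%), against 4.12% of all tested loci. These intervals cover counting error only, and both shares lay near that of all loci. By direction, loci higher in jmj705 had 2 of 37 in the wild-type background and 0 of 37 in the wox11 background, which allows a share of up to 9.49% by the same interval, and loci lower in jmj705 had 2 of 24 in each.

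Both called clock genes had a peak, each in a different list. Peaks at the other tested clock genes are not given here. At LHY, the wild-type background list held a peak on chromosome 8 from 3360521 to 3361819, over the lower-coordinate end of the locus, with 39 tags and the authors' fold enrichment of 4.18, and the wox11 background list held none within 2000 bp. At LUX, the wox11 background list held a peak on chromosome 1 from 42875303 to 42876294, over the higher-coordinate end, with 52 tags and the authors' fold enrichment of 10.58, and the wild-type background list held none within 2000 bp. The start-coordinate end of WOX11 itself was overlapped by a peak in both lists, with 50 tags in the wild-type background and 73 tags in the wox11 background. JMJ705, the gene over-expressed in these plants, had peaks of 109 and 159 tags in the wild-type background and of 98 tags in the wox11 background. The lists differ in depth and have no replicate, so the presence of a peak in one list alone was not tested as a difference.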

How the data were processed

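RNA libraries came from hand-dissected apices and a TruSeq kit, per the labels' protocols. The submitters' processing notes name Trimmomatic, TopHat and Cufflinks, without versions, for these libraries. The tables deposited by the authors give FPKM per locus with bounds and a status, per the file headers. For ChIP the same notes name SAMtools 0.1.17, Bowtie2 2.1.0 and Trimmomatic 0.32, and peaks came from MACS 1.4.2 (p-value threshold 1e-05), per the file headers. Peak lists as deposited hold tag counts, a score from the p-value, an FDR in percent and a fold enrichment, which is a ratio. No source used here names the genome build.

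Of 55719 named loci, 13 had a failed estimate, 34226 fell below the filter and 21480 were tested by limma 3.58.1 (R 4.3.3) on log2(FPKM + 1), with 1 mean per genotype over all 6 libraries (3 residual degrees of freedom), a trend of variance with level and Benjamini-Hochberg adjustment over all tested loci at 0.05. The p-values speak of the spread among these libraries. In simulated data with 200 of 21480 loci changed, 39% of 2-fold and 92% of 4-fold changes were called in this comparison, and 3.68% of calls were false. The changed loci were drawn from those averaging above 5 FPKM, with normally distributed noise. These shares therefore do not describe called loci that lay near 0 outside a single mutant. Of the called loci, 11 share coordinates with another entry or join several names.

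The gene lists, written from textbook knowledge, held 377 genes. Those on merged or several loci (15), not matched to a locus name (3) or with a symbol elsewhere in RefSeq (6) were left out. Of the 353 used, 244 had their symbol at a like place in RefSeq's table for ASM3414082v1, which is another build and is used for names only, and 109 rest on the lists alone, counted but not named with values (RCc3 apart). Genes named are the mutated genes, every called list gene, in other lists up to 3 genes of smallest p with a RefSeq symbol, the largest called differences and the highest loci on in a single mutant. The further clock genes, CHLD, TIFY10A and the neighbouring loci of chromosomes 9 and 10 were added after their values were seen. Members, lists and rules were chosen with earlier results of these data known. A peak was assigned to a locus within 2000 bp. Alternatives were other pseudocounts, filters and scalings, a fit without a trend, a fit of the 4 mutant libraries, a replicate block and each library left out. A search for the evening element in promoters was not run, since no sequence was used here.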

Additional observations from a re-analysis of the deposited data

How the results depend on the processing

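The count of 61 called loci was 44 and 59 with pseudocounts of 0.1 and 5 FPKM, 65 with no filter (of 32888 loci) and 50 with a filter of 5 FPKM, 60 with median-ratio scaling, 63 with quantile normalization, 77 with no trend and 62 in a fit of the 4 mutant libraries. It was 24 to 62 when each library was left out, lowest without wox11 replicate 2. Without loci that share coordinates or join names, an alternative chosen after seeing the data, it was 50. With a replicate block it was 69, of which 49 were among the 61; deviations from the group means correlated at 0.114 between same-numbered jmj705 and wox11 libraries, and with 2 pairs the libraries share only a number. Under the block PORA was not called (adjusted p = 0.0533).

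Of the 61 loci, 39 stayed called with no filter and 43 with a pseudocount of 0.1. Loci on in jmj705 and off in wox11 numbered 15 with on set at 2 FPKM and 7 with off set below 1 FPKM, against 4. Peak shares moved within their intervals with windows of 5000 bp or overlap alone. The median log2 difference changed sign with a single library left out in 17 of the 31 lists with a tested gene, light harvesting, defence, jasmonate, heat shock, nitrogen and cell division among them. It kept its sign in the auxin, shoot meristem, Calvin cycle, chlorophyll and clock lists. The causes were not tested. Total depth limits what can be said of low loci.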
